A study of Mus musculus with 6 samples.

Results

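Genes of innate RNA sensing and the interferon response, 7 in all, were followed in a mouse melanocyte line in which Dicer was targeted: Ifih1, Ddx58, Adar, Zbp1, Gbp2, Gbp3 and Tlr2. They were chosen by symbol, each as the probe set whose platform annotation names that gene alone. All 7 of the 7 genes were found, among 7486 genes with a probe set of their own in the values used here. Of the 7530 probe sets with 1 symbol in these values, 7439 lie on chromosomes 1 to 4. Each of the 7 genes had 1 probe set, so no choice between probe sets was needed. The genes lie on chromosomes 2 (Ifih1 and Zbp1), 3 (Adar, Gbp2, Gbp3 and Tlr2) and 4 (Ddx58).

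The cells were Melan-a, an immortal line of pigmented C57BL/6 melanocytes, kept in medium with serum and 200 nM TPA, a phorbol ester. One group received siDicer, a small interfering RNA (siRNA) against Dicer, and the other siScr, a control siRNA, at 50 pmol per well by lipid and magnetic transfection, and lysates were taken about 24 hours later. There were 3 arrays of each, 1 from passage 47, 1 from passage 54 and 1 from passage 56, so that each siDicer array has a siScr partner of the same passage. Both groups carried a transfected short double-stranded RNA, and untransfected cells were not analysed here, so every difference below is between one siRNA and the other. All samples came from the same cell line, and Dicer itself was not analysed here, so the groups rest on their labels. The values are log2 signals of labelled total RNA on mouse Clariom D arrays. Of 12 listed melanocyte markers 3 were measured and all 3 were high, with Mlph at 10.2 in siDicer and 10.3 in siScr cells, Tyrp1 at 12.9 in siDicer and 12.8 in siScr cells, and Pax3 at 10.6 in both.

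RNA sensors tell foreign or misplaced RNA from the cell's own. Ifih1 encodes MDA5, which binds long double-stranded RNA, and Ddx58 encodes RIG-I, which binds double-stranded RNA ends that carry a triphosphate. Both signal through the mitochondrial adaptor Mavs to type I interferon genes, and interferon in turn raises both sensors together with guanylate-binding proteins such as Gbp2 and Gbp3. Adar edits adenosine to inosine in double-stranded RNA and so keeps the cell's own RNA from MDA5. Zbp1 binds nucleic acids in the Z form and can start cell death through Ripk3, while Tlr2 is a surface receptor for bacterial lipoproteins rather than for RNA. Dicer cuts long double-stranded RNA and microRNA precursors.

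The promoters of 4 of the genes are shown because they hold a match, as searched here, to the sequence through which interferon commonly acts. Those 4 genes also had the larger mean differences described below, with Ifih1 and Ddx58 higher and Gbp2 and Gbp3 lower in siDicer cells. None of these differences passed the threshold used below, and the pairs of Gbp3 disagreed in sign. Zbp1 has no promoter entry and could not be placed on either side. A link between the sequence and the differences was not tested. The interferon-stimulated response element was searched as GAAA, any 2 bases, GAAA, on both strands, in RefSeq promoters (GRCm38.p6) that run from 250 bases before to 50 after each annotated start. Capitals mark the matches, and on the opposite strand these read TTTC, 2 bases, TTTC. The Ifih1 window is chr2:62646206-62646505 on the minus strand, that of Ddx58 chr4:40239776-40240075 on the minus strand, that of Gbp2 chr3:142620413-142620712 on the plus strand and that of Gbp3 chr3:142559794-142560093 on the plus strand.
Ifih1: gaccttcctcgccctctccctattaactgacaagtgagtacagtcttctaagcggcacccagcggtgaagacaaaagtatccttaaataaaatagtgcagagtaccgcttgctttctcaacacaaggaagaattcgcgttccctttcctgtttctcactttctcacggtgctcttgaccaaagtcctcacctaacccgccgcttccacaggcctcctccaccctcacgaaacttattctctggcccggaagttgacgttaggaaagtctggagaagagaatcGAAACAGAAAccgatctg
Ddx58: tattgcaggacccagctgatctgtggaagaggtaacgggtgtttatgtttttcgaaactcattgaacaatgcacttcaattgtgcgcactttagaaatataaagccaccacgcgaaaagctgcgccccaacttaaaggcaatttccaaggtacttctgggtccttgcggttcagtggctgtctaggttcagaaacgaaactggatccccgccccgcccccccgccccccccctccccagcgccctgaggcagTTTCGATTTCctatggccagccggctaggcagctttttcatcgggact
Gbp2: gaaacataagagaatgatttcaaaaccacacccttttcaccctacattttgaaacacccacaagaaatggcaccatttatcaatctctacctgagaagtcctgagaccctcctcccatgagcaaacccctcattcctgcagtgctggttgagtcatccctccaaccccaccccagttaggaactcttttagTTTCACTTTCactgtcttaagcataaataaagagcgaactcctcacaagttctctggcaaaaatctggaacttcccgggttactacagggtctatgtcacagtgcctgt
Gbp3: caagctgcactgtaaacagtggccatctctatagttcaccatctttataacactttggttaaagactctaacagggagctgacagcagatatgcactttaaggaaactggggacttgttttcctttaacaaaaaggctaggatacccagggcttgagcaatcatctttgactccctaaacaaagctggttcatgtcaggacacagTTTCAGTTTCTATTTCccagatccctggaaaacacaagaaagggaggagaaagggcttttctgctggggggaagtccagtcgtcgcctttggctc

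The match in Ifih1 began 32 bases after the annotated start and that in Ddx58 began 2 bases after it. In Gbp2 the match lay from 59 to 50 bases before the start. Gbp3 held 2 matches that overlap, from 45 to 36 and from 39 to 30 bases before the start, and the second of its 2 promoters in the table held none. The same letters were in 3.44% of 32851 promoters, and 3.99% of 27025 genes had them in at least 1 promoter. Neither the 3 promoters of Adar nor the promoter of Tlr2 held them, and Zbp1 has no entry. Only these exact letters were counted, so forms of the element with other letters or spacing were missed. Promoter 3 of Adar, for example, holds gaaacgaaa, with 1 base between the repeats. The gamma-activated site, searched as TTCNNNGAA on both strands, was found in 1 promoter of Adar, against 8.30% of all promoters. The pattern, though not its middle bases, is the same on both strands there, and no other promoter of these genes held it. A match is a stretch of letters, and binding there was not measured.

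The groups were compared with limma over all 16383 probe sets, siDicer minus siScr, with replicate number (passage) as a block and Benjamini-Hochberg adjustment, and a gene passed where its adjusted p was under 0.05. In this fit 163 probe sets passed, or 0.995%, and 0 of the 7 genes were among them. At an unadjusted p under 0.05 in limma there were 4, Ifih1 and Ddx58 with higher values in siDicer cells and Gbp2 and Zbp1 with lower ones. Of all probe sets 15.7% had such a p, 8.82% with higher and 6.85% with lower values. All 4 rest on the block: without it 0 of the 7 genes had an unadjusted p under 0.05. These 4 were also the ones whose difference had the same sign in every pair, 2 upward and 2 downward. Among all probe sets, 17.9% were higher in all 3 pairs and 22.6% lower in all 3, so a shared sign is common in these data. Values of the siDicer and siScr arrays overlapped for all 7 genes, whereas the groups did not overlap for 15.9% of probe sets.

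The cytosolic sensors come first. Ifih1 had log2 signals of 6.38, 7.48 and 6.79 in siDicer cells at passages 47, 54 and 56, against 6.06, 7.41 and 6.34 in siScr cells. Within each passage the siDicer array was the higher, by 0.32, 0.07 and 0.45, but both passage 54 arrays stood above all others, so the groups overlapped. The means were 6.88 ± 0.56 in siDicer and 6.60 ± 0.71 in siScr cells (SD, n = 3 each). The difference was 0.28 with a standard error of 0.08, a 1.21-fold higher level in siDicer cells (limma, 95% interval 0.08 to 0.48, adjusted p = 0.196).

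Ddx58 had 7.94, 8.63 and 8.13 in siDicer cells at passages 47, 54 and 56, against 7.72, 8.56 and 7.86 in siScr cells. The order of the arrays was that of Ifih1, with siDicer above siScr within each passage and the passage 54 pair on top. The 3 pair differences were 0.22, 0.07 and 0.27, and for both sensors the passage 54 pair gave the smallest. The mean difference of 0.19 ± 0.06 (SE) was 1.14-fold in favour of siDicer and did not pass (limma, 95% interval 0.04 to 0.34, adjusted p = 0.237).

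Zbp1, the sensor of Z-form nucleic acids, was nearer to background. Its log2 signals were 4.99, 5.17 and 4.97 in siDicer cells at passages 47, 54 and 56, against 5.13, 5.42 and 5.04 in siScr cells. Genes that melanocytes are not known for, 426 odorant and pheromone receptors, served to mark background: their 95th percentile of 4.22 is called the receptor gauge here, and Zbp1 lay 0.90 above it. Its siDicer arrays were lower in each pair, with a difference of -0.15 ± 0.06 (SE; limma, 95% interval -0.30 to -0.01, adjusted p = 0.300).

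Adar, the editing enzyme, had 7.50, 7.86 and 7.53 in siDicer cells at passages 47, 54 and 56, against 7.36, 7.93 and 7.53 in siScr cells. The pairs pointed both ways, by 0.14, -0.07 and -0.00, and no direction was shared. The difference was 0.02 ± 0.06 (SE), with a 95% interval from -0.13 to 0.18 (limma, adjusted p = 0.889). Its sign turned under 3 of 13 alternative settings, quantile and cyclic loess normalization among them.

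The guanylate-binding proteins are interferon-induced GTPases that attack pathogens inside cells. Gbp2 had 6.82, 7.46 and 6.98 in siDicer cells at passages 47, 54 and 56, against 7.15, 7.94 and 7.21 in siScr cells. Each siDicer array was below its partner, by 0.34, 0.47 and 0.22, with the widest gap at passage 54. The means were 7.09 ± 0.33 in siDicer and 7.43 ± 0.44 in siScr cells (SD, n = 3 each), and the difference of -0.34 ± 0.07 (SE) amounts to a 1.27-fold higher level in siScr cells. It had the smallest p of the 7 genes and did not pass (limma, 95% interval -0.51 to -0.18, adjusted p = 0.0886). Its call turned on which probe sets were tested: the adjusted p was 0.0418 over the probe sets above the median level and 0.034 over those with 1 gene symbol.

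Gbp3 had 6.06, 7.01 and 6.45 in siDicer cells at passages 47, 54 and 56, against 6.29, 7.46 and 6.36 in siScr cells. Here the siDicer array was lower at passages 47 and 54, by 0.24 and 0.45, and higher by 0.09 at passage 56. The difference was -0.20 ± 0.10 (SE; limma, 95% interval -0.45 to 0.05, adjusted p = 0.404). It depended on the passage 54 pair, without which it was -0.07, and was -0.34 without the passage 56 pair. Gbp2, Gbp3 and Gbp7 are close relatives within one cluster on chromosome 3, and how far their probes read each other was not tested.

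Tlr2, the lipoprotein receptor, had 5.13, 5.07 and 4.86 in siDicer cells at passages 47, 54 and 56, against 5.30, 4.88 and 5.06 in siScr cells. It lay 0.83 above the receptor gauge, the pairs disagreed in sign, and it was the only one of the 7 genes whose highest passage mean was not at passage 54. The difference was -0.06 ± 0.09 (SE; limma, 95% interval -0.27 to 0.15, adjusted p = 0.779).

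**Figure D1:**
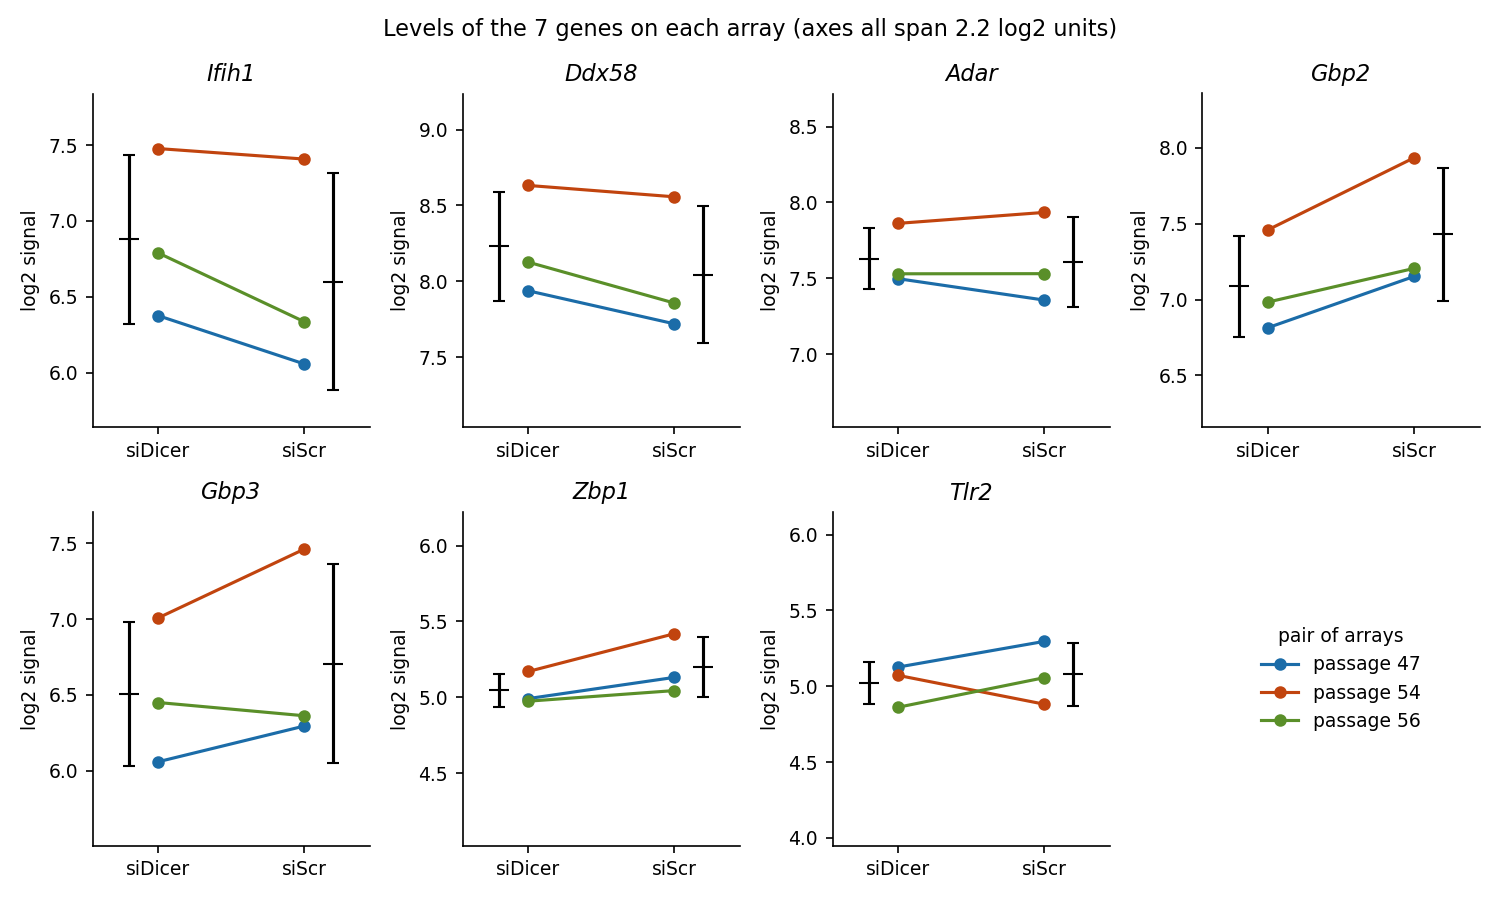
Log2 signal of each gene (vertical axes, all spanning 2.2 log2 units) in siDicer and siScr cells, with a line joining the arrays of each passage and black bars for the mean ± SD of 3 arrays. The passage 54 lines lie on top for every gene except Tlr2, while the lines of Ifih1 and Ddx58 run down from siDicer to siScr and those of Gbp2 and Zbp1 run up.

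**Figure D2:**
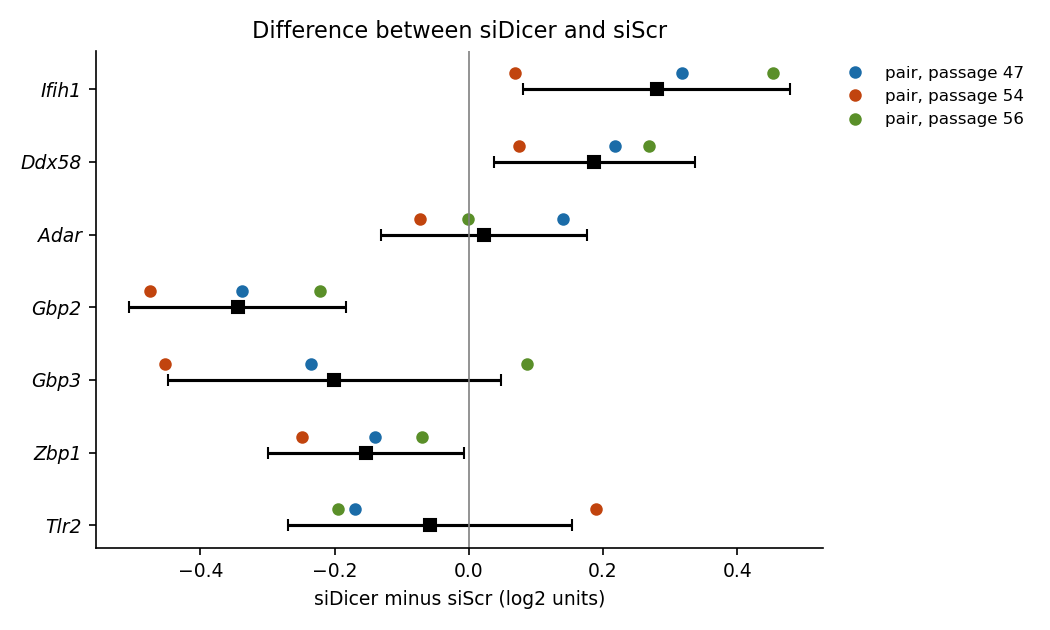
Differences between siDicer and siScr in log2 units (horizontal axis) for the 7 genes, with the fitted difference and its 95% interval in black and the 3 pairs of arrays as coloured points. The intervals of Ifih1, Ddx58, Gbp2 and Zbp1 leave out 0 and those of Adar, Gbp3 and Tlr2 hold it, and these intervals rest on the block and are not adjusted for the 16383 probe sets tested.

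The arrays also differed between passages. The highest passage mean was at passage 54 for 6 of the 7 genes, and for the same 6 it was also the highest within siDicer and within siScr, a pattern found in 15.1% of all probe sets. The 3 passages were compared with limma's moderated F test on the block terms of the same fit, in which 96 probe sets passed (0.586%). Of the 7 genes 4 passed: Ifih1 (adjusted p = 0.0141), Ddx58 (0.0283), Gbp2 (0.0383) and Gbp3 (0.0481). Adar (0.124), Zbp1 (0.257) and Tlr2 (0.417) did not.

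Averaged over the siDicer and siScr arrays of a passage, Ifih1 stood at 6.22, 7.44 and 6.56 at passages 47, 54 and 56. Its passage means spanned 1.23 log2 units. Ddx58 stood at 7.83, 8.59 and 7.99, Gbp2 at 6.98, 7.70 and 7.10, and Gbp3 at 6.18, 7.23 and 6.41. For each of these 4 genes passage 56 lay closer to passage 47 than to passage 54, so the levels did not run in one direction with passage number. The passage 54 arrays lay above the mean of the other passages by 1.05 for Ifih1, 0.94 for Gbp3, 0.68 for Ddx58 and 0.66 for Gbp2, where the 5th and 95th percentiles of all probe sets were -0.17 and 0.21.

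Each passage is 1 array per group, so passage cannot be told apart from whatever else the arrays of a number share, such as the day of culture or handling. The RNA integrity numbers were 9.7 in the siDicer and 9.8 in the siScr array of passage 54 and 10.0 on the other 4, and the part of RNA integrity in the passage differences was not tested. The passage calls of Gbp2 and Gbp3 were lost after quantile normalization (adjusted p of 0.0701 and 0.0779 in limma) and after cyclic loess (0.0561 and 0.0690), and that of Gbp3 also with array weights (0.0538).

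Other genes of the pathway were read from 7 lists. Of the 165 listed genes besides the 7 above, 53 were measured and 112 had no probe set of their own here. Of the 7530 probe sets with 1 symbol, 7439 lie on chromosomes 1 to 4, so the counts below cover part of the pathway. Between siDicer and siScr 0 of the 53 passed. At an unadjusted limma p under 0.05, 8 of the 53 were higher and 7 of the 53 were lower. Both are larger shares than the 8.82% and 6.85% of all probe sets. The lists were chosen with earlier results of these data known, so the excess was not tested. The shares over all probe sets are the background of the counts at an unadjusted p in each list below. The median difference of the 53 was 0.01, against -0.01 over all probe sets. On the passage test 5 of the 53 passed, against 0.586% of probe sets: Ifi204, Ifi207, Mndal, Sp100 and Gbp7.

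In the list of double-stranded RNA sensors and their regulators 11 of 27 genes were measured and 0 passed. At an unadjusted limma p under 0.05 there were 2 higher and 3 lower, and the median difference was 0.02. The 3 smallest p-values belonged to Samhd1, Ilf2 and Ifih1. Samhd1, a nuclease and dNTP hydrolase that restricts viruses, had 8.24, 8.72 and 8.40 in siDicer cells at passages 47, 54 and 56, against 8.55, 8.998 and 8.74 in siScr cells. It was lower in siDicer in every pair, with a difference of -0.31 ± 0.05 (SE; limma, adjusted p = 0.0671). Ilf2, a subunit of the NF90 double-stranded RNA-binding complex, had a difference of -0.21 (adjusted p = 0.178). Mavs, the adaptor that both cytosolic sensors share, had one of 0.06 (adjusted p = 0.737), and Prkra, a double-stranded RNA-binding partner of Dicer and of the kinase PKR, one of 0.05 (0.800). Dhx9, a helicase that unwinds double-stranded RNA, had a difference of -0.10 (adjusted p = 0.425).

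Of the 21 listed interferon genes themselves 15 were measured. A mean above the receptor gauge was found for 8 of them, while 57.8% of all probe sets lay above it. In this list 0 passed, with a median difference of -0.08 and at an unadjusted p under 0.05 in limma 2 lower. Ifnb1, the gene of interferon beta, was below the gauge at 3.26 in siDicer and 3.35 in siScr cells. The smallest p-values were those of Ifne (difference -0.20, adjusted p = 0.224), Ifna4 (-0.15, 0.316) and Ifna1 (-0.13, 0.383). None of the 15 passed the passage test, and 4 of them had a higher mean at passage 54 than over the other passages, as 49.1% of all probe sets had.

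Among genes that carry the signal, 7 of 30 were measured, 0 passed and 6 had a difference above 0. The median was 0.11, and 3 were higher at an unadjusted limma p under 0.05. Traf6, the ubiquitin ligase that links Toll-like and interleukin-1 receptors to NF-kappaB, had 7.16, 7.23 and 7.24 in siDicer cells at passages 47, 54 and 56, against 6.78, 6.93 and 6.79 in siScr cells. Its groups did not overlap, and the difference of 0.37 ± 0.06 (SE) had an adjusted p of 0.0539 in limma. Ifnlr1, a chain of the interferon lambda receptor, had a difference of 0.19 (adjusted p = 0.215) and Ikbke, a kinase of interferon regulatory factors, one of 0.16 (0.243). The Toll-like receptor list had 10 of 32 genes measured and 0 past the threshold, with a median of 0.00. It had 3 higher and 2 lower at an unadjusted limma p under 0.05. In it, after Traf6, came Tlr4, the receptor for lipopolysaccharide, with a difference of 0.35 ± 0.06 (SE; adjusted p = 0.0695), and Ly96, its co-receptor MD-2, with 0.19 (0.178).

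The interferon-stimulated genes had 15 of 49 measured and 0 past the threshold. Of the 15, 13 differences were above 0 and 2 below, with a median of 0.05 against -0.01 over all probe sets. There were 3 higher and 1 lower at an unadjusted limma p under 0.05. In this list 7 genes were higher in siDicer in all 3 pairs and 1, Samhd1, was lower in all 3. The shares over all probe sets were 17.9% and 22.6%. The mean lay above the receptor gauge for 10 of the 15 genes. Tor3a, an interferon-induced ATPase of the endoplasmic reticulum, had a difference of 0.32 ± 0.06 (SE; limma, adjusted p = 0.0944), and Mndal, a nuclear protein of the PYHIN family, one of 0.21 (0.219).

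On the passage test 4 genes of this list passed. Ifi204, a PYHIN protein that takes part in DNA sensing, had 8.43, 10.1 and 9.32 in siDicer cells at passages 47, 54 and 56, against 8.35, 10.0 and 8.98 in siScr cells. Its passage 54 arrays were 1.30 above the mean of the others (limma F test, adjusted p = 0.00222). Ifi207 was 1.24 above (adjusted p = 0.00148), Mndal 1.06 (0.00272) and Sp100, a nuclear body protein, 0.98 (0.00682). The passage 54 arrays were above the mean of the others for 14 of the 15 genes of the list, against 49.1% of all probe sets. Ifi204, Ifi207 and Mndal are PYHIN relatives, and how far their probes read each other was not tested.

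Of 15 listed guanylate-binding and immunity-related GTPases 3 were measured, among them Gbp2 and Gbp3. All 3 had a negative difference, with a median of -0.34. The other was Gbp7, with 7.13, 7.999 and 7.52 in siDicer cells at passages 47, 54 and 56, against 7.59, 8.70 and 7.80 in siScr cells. It was lower in siDicer in each pair, by -0.48 ± 0.09 (SE; limma, adjusted p = 0.0755), and its passage 54 arrays were 0.84 above the others (F test, adjusted p = 0.0365). Among the 7 listed cell death genes tied to Zbp1, 3 were measured and 0 passed. Casp6 and Casp8, caspases that act with Zbp1, had differences of -0.10 (adjusted p = 0.408) and -0.03 (0.827).

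**Figure D3:**
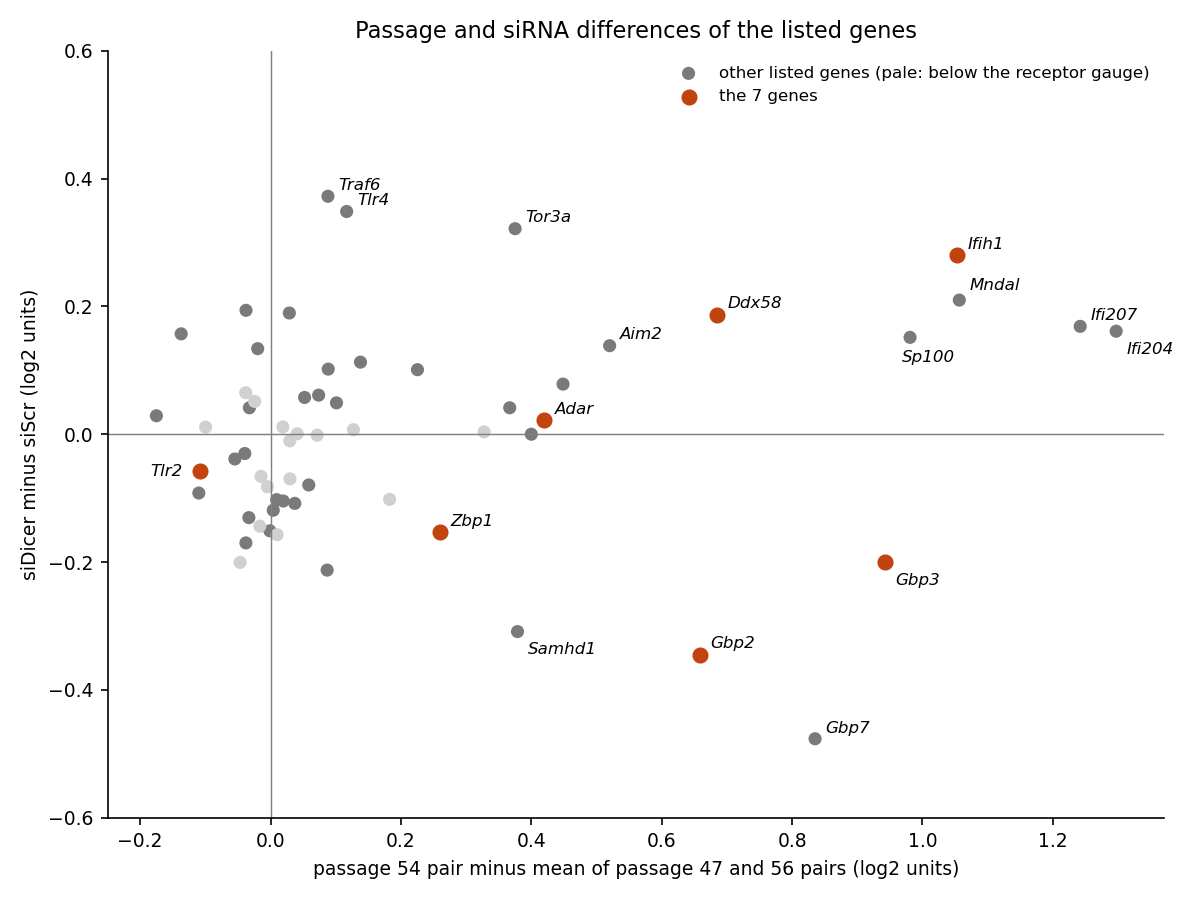
Each point is 1 of the 60 listed genes, placed by the passage 54 pair minus the mean of the other pairs (horizontal axis, log2 units) and by siDicer minus siScr (vertical axis, log2 units), with the 7 genes in orange and genes below the receptor gauge in pale grey. Ifih1 and Ddx58 lie to the upper right with Mndal, Sp100, Ifi204 and Ifi207, and Gbp2 and Gbp3 to the lower right with Gbp7.

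**Figure D4:**
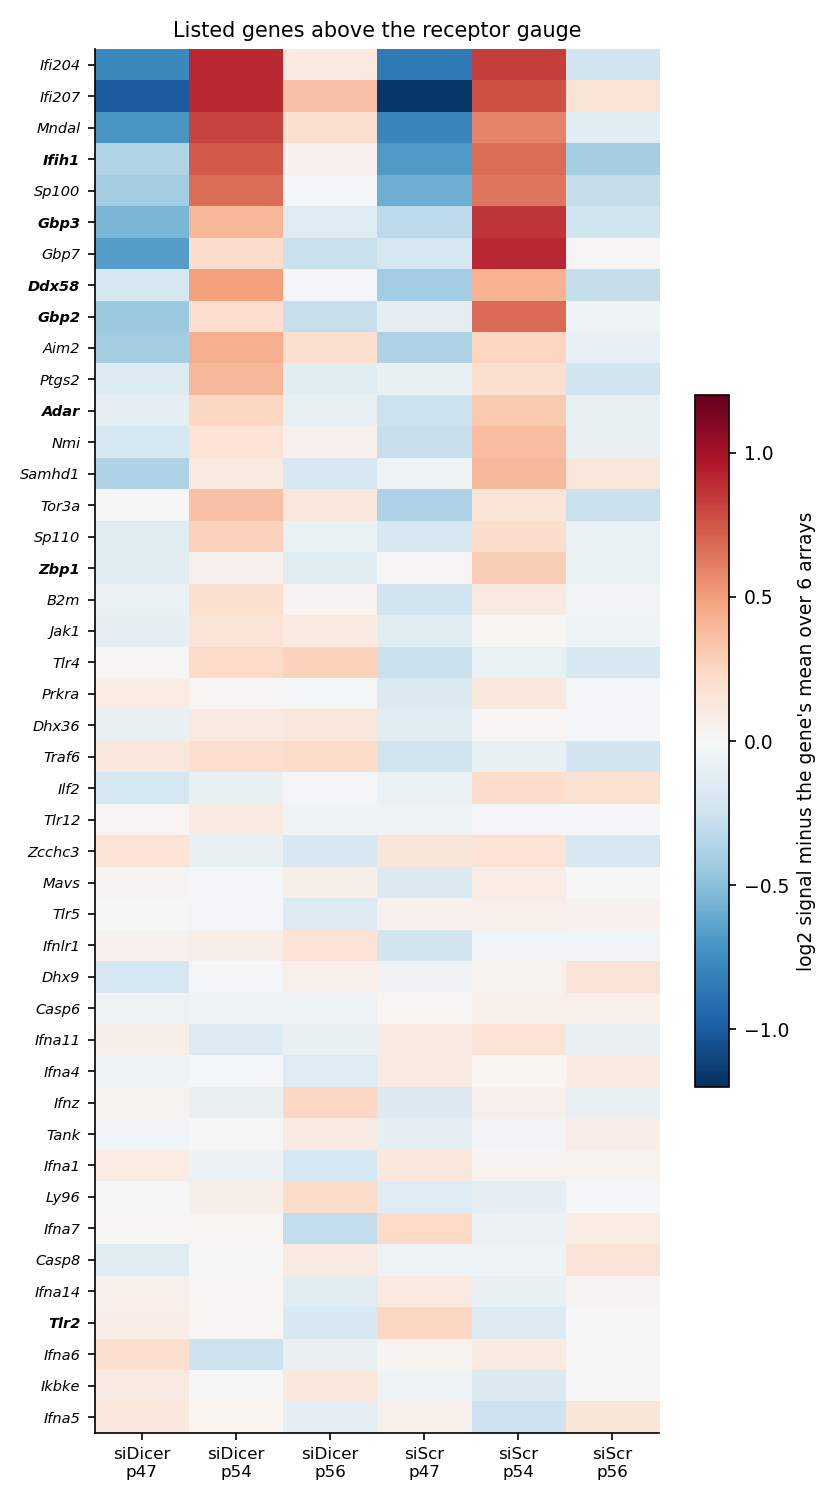
Log2 signal minus the gene's mean over the 6 arrays for the 44 listed genes above the receptor gauge, ordered from top to bottom by the passage 54 difference, with the 7 genes in bold and p for passage. Red in both p54 columns marks the upper genes, and the siScr p54 column is the darker for Gbp2, Gbp3 and Gbp7.

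Melanocytes, immune cells and fibroblasts all use these genes, so the markers of other cells are given beside them. Of 12 immune cell markers 7 lay above the receptor gauge, a share close to the 57.8% of all probe sets, with Ptprc, the common leukocyte antigen, below it at 2.84 in siDicer and 2.85 in siScr cells. The mean levels of the 12 ran from 2.84 to 5.38, beside a gauge of 4.22 and mean levels of 5.12 for Zbp1 and 5.05 for Tlr2. Their summed log2 level ran from 51.7 to 52.4 in siDicer and from 53.1 to 53.4 in siScr cells with no overlap. Of single probe sets 15.9% did not overlap, but that share is no background for a sum of 12, and none for such sums was worked out. The sum differed in the same direction as the values of Gbp2 and Zbp1, and in each group it was highest at passage 54. Of the immune markers 0 passed, and 4 were lower with an unadjusted limma p under 0.05. The part of such cells in the differences of Gbp2 and Zbp1 was not tested. In RNA from whole cultures fewer cells of a type and less RNA per cell cannot be told apart. The median difference was -0.07 for the immune markers, -0.08 for the interferon genes and -0.07 for the keratinocyte markers, lists that include genes below the gauge. It was 0.05 for the interferon-stimulated genes, which also include such genes. The part of a shift of low signals between the arrays in the marker sum was not tested. The 4 fibroblast markers had summed levels of 23.4 to 24.3 in siDicer and 23.0 to 23.9 in siScr cells. The 4 keratinocyte markers had sums of 18.5 to 18.8 in siDicer and 18.6 to 19.1 in siScr cells, with 2 of them above the gauge, and the 3 melanocyte markers had sums of 33.3 to 33.8 in siDicer and 33.5 to 34.0 in siScr cells. Within each group the melanocyte sum was lowest at passage 54, at 33.3 in siDicer and 33.5 in siScr cells, where 6 of the 7 genes were highest, and 0 of the 3 markers stood higher there than over the other passages (median -0.14). The keratinocyte sum was highest at passage 54 in siDicer and lowest there in siScr cells. The part of these marker levels in the passage 54 values was not tested. In limma 0 of these 11 markers passed for the siRNA and 0 for passage, with 2 fibroblast markers higher and 1 keratinocyte marker lower at an unadjusted p under 0.05.

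The profiles nearest to each gene were sought among 3489 named genes above the gauge, by the root mean square distance over the 6 arrays after each gene was centred on its own mean. For Ifih1, whose own values spread by 0.541 around their mean, the nearest were Sp100 at 0.0793, S100a6 at 0.145 and Sgms2 at 0.146. For Ddx58 they were Tgm2 at 0.0650, Csf1 at 0.0652 and Ptprn at 0.0788, and for Adar Cyb5r1 at 0.0481, Pdcd5-ps at 0.0526 and Sp110 at 0.0551. For Gbp2 they were Ube2l6 at 0.0921, Tnc at 0.124 and Ctps at 0.136, and for Gbp3 Pramel19 at 0.119, Adh7 at 0.153 and Gbp7 at 0.153. Sp100 thus followed Ifih1 more closely than the next gene did, and with 6 arrays in 3 pairs many genes share a profile that is highest at passage 54. Zbp1 and Tlr2 spanned 0.44 and 0.43 log2 units, under the 0.5 asked for this search.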

How the data were processed

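RNA from 3 siDicer and 3 siScr cultures of Melan-a cells was read on mouse Clariom D arrays. The deposited values are log2 signals per transcript cluster, and the submitters' processing notes name Affymetrix Expression Console as the authors' software. Nothing in the sources used here gives its version, background step or normalization. Array medians lay between 4.58 and 4.64, close enough that a shift common to most probe sets could not be read from them. The table held 16383 probe sets. The platform annotation gave 7530 of them 1 symbol, 455 several and 8398 none, and 7439 of the named ones lie on chromosomes 1 to 4. Symbols were updated through Entrez numbers with the RefSeq table of GRCm38.p6. No source used here gives the genome build of the probes, and the coordinates printed are those of the RefSeq promoters. No value was changed.

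The comparison was fitted with limma 3.58.1 under R 4.3.3 (an untrended eBayes prior, 2 residual and 4.33 prior degrees of freedom) over all probe sets, and tested on simulated data. Replicate number was a block, because numbers 1, 2 and 3 are passages 47, 54 and 56 in both groups. Across probe sets, same-numbered arrays deviated together from their groups' means, with r of 0.44, 0.41 and 0.24, and different numbers with r from -0.34 to -0.04. Deviations within a group sum to 0, which lowers the values between different numbers. The series' design text calls the samples biological replicates, all of 1 cell line. The number of arrays limits the precision.

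The 7 genes and the lists were chosen with earlier results of these data known, so no list was tested. The text names the 7 genes, in each list every gene past a threshold and the 3 with the smallest p, and the 3 nearest profiles of each gene that spans 0.5 log2 units, with predicted models left out. Mavs, Prkra, Dhx9, Ifnb1 and the markers Tyrp1, Pax3 and Ptprc were named outside that rule. The alternatives were no block, quantile and cyclic loess normalization, centring, a trended prior, array weights, filters on level and symbol, identical rows removed, a threshold of 0.1 and each pair left out. Figures were drawn with matplotlib 3.10.9.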

Additional observations from a re-analysis of the deposited data

How the results depend on the processing

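Of 91 refitted differences of the 7 genes, 84 kept their direction and their side of the threshold. Adar turned to -0.00172 after quantile normalization, -0.00132 after cyclic loess and -0.0364 without replicate 1, and Tlr2 to 0.0104 without replicate 3. With pairs left out Adar ran from -0.0364 to 0.0700 and Tlr2 from -0.182 to 0.0104. These 2 genes passed nowhere, and the cause was not tested. Among the 7 genes 1 passed, Gbp2, over the probe sets above the median level, over those with 1 symbol and at a threshold of 0.1, and 0 passed in the other alternatives. Fewer probe sets were tested in the first pair of these, 8191 and 7530. The same 3 settings passed 6 listed genes each (Gbp2, Gbp7, Samhd1, Tlr4, Tor3a and Traf6), and the trended prior passed 4 of them (Gbp7, Samhd1, Tlr4 and Traf6). The passage calls numbered 2 after quantile normalization and 2 after cyclic loess.

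Over all probe sets 163 passed with the replicate block, on which the pairing rests, and 35 with no replicate block. The smallest adjusted p of the 7 genes without the block was 0.653, so the block changed none of their calls at the threshold. At an unadjusted p under 0.05 it did: 4 of them with the block and 0 without it. The count was 84 after quantile normalization, 93 after cyclic loess, 302 with the trended prior, 388 above the median level, 281 with 1 symbol and 378 at a threshold of 0.1. Leaving out a pair gave from 0 to 157: 157 without replicate 1 and 0 without replicate 2 or replicate 3 in limma, with 2171 and 1814 at an unadjusted p under 0.05. A fit on 2 pairs has fewer samples. Each of the 7 genes has 1 probe set, so the lowest-mean alternative gave no value. Depth in an array is signal over background, and it limits Zbp1 and Tlr2, both under 1 log2 unit above the receptor gauge.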

Other observations

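Of the 96 probe sets past the threshold of limma's F test for passage, 80 had their highest mean at passage 54. The values hold 170 probe sets that repeat those of another, and some of the 96 and of the 80 are such repeats. The genes named here were chosen after their values were seen, from those that passed, and stand for no family. Ifi211, like Ifi204, is a PYHIN gene, and of the same family Aim2 (adjusted p = 0.0689), Ifi208 (0.160), Ifi213 (0.496) and Ifi209 (0.966) did not pass. Ifi211 stood at 7.58, 9.12 and 8.28 at passages 47, 54 and 56 (means of the siDicer and siScr array, adjusted p = 0.00245). The pseudogene Ifi203-ps stood at 5.38, 6.73 and 6.15 (adjusted p = 0.00272). Il1r1, the interleukin-1 receptor, stood at 5.52, 6.21 and 5.51 (adjusted p = 0.0327), with its passage 47 and 56 means nearly equal, as were those of the macrophage growth factor Csf1 at 7.84, 8.56 and 7.85 (adjusted p = 0.0302). Eng, endoglin, a TGF-beta co-receptor, differed otherwise, at 8.51, 7.33 and 7.17 (adjusted p = 0.00203), highest at passage 47.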
